A study of Mus musculus with 15 samples.

Results

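The Zfp36 family of mRNA-binding proteins was examined as RNA target of its own founding member, tristetraprolin (TTP), which is encoded by Zfp36. The members were the genes Zfp36, Zfp36l1 and Zfp36l2, and every crosslink site on the sense strand of these 3 genes was taken from 6 lists of sites made by individual-nucleotide resolution crosslinking and immunoprecipitation (iCLIP). The members held 162 of the 123142 distinct sites in the lists, of which 95 lay in Zfp36, 67 in Zfp36l2 and 0 in Zfp36l1. In all, 7877 genes held a site. No member site lay in another gene of the same strand, and 0 sites lay antisense within the members.

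All libraries came from macrophages derived from bone marrow of TTP-deficient C57BL/6 mice and immortalised with the oncogenes hcmyc and hRas, so the cells of every group lacked endogenous TTP. They carried a doxycycline-inducible vector for GFP-TTP or for GFP-TTP-AA, a mutant with alanine at both serines that the kinase MK2 phosphorylates (S52A and S178A). Doxycycline was given for 6 h in every group, alone (0 h) or with lipopolysaccharide (LPS) for 1 h or 4 h. The number of libraries per time, in this order, was 2, 4 and 2 with GFP-TTP and 2, 3 and 2 with GFP-TTP-AA. The vectors contained the protein-coding sequence of TTP and no 3′UTR, according to the study's methods. A cDNA in the Zfp36 3′UTR therefore marks sequence outside the vector, whereas a cDNA in the coding sequence (CDS) can come from the vector or from the mutated endogenous gene, which cannot be told apart.

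TTP binds AU-rich elements in 3′UTRs, of which the pentamer AUUUA is the core, through a pair of CCCH zinc fingers, and recruits deadenylases that shorten the poly(A) tail of the bound mRNA. Its paralogs Zfp36l1 (BRF1) and Zfp36l2 (BRF2) share the zinc finger domain and the same kind of target. Zfp36 is an immediate early gene that is induced by LPS in macrophages, and MK2 phosphorylation lowers the ability of TTP to destabilise mRNA. TTP is known to bind its own mRNA, which forms a negative feedback loop, and AU-rich elements in the paralogs offer the same possibility within the family.

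The groups were pooled by the authors, so each value is 1 count of unique cDNAs per list, without replicates. All differences below compare lists, not conditions, and their intervals cover counting error only. The lists held 19167 to 174397 cDNAs, of which 906 to 93510 lay in 3′UTRs. A share of 10.4% to 32.0% of a list lay in a ribosomal RNA locus on chromosome 17 that spans the non-coding genes Gm26917 and Gm42418. A list names only sites that passed the threshold of the authors, so a count of 0 says only that the lists as used here name no site there. Of the macrophage markers, 9 of 10 held sense cDNAs in at least 1 list (all but Fcgr1), against 1 of 5 fibroblast markers (Dcn) and 0 of 5 T and B cell markers. The summed marker cDNAs of a list lay between 0 and 441 for macrophages, between 0 and 2 for fibroblasts and at 0 for T and B cells. The number of cDNAs on a gene depends on how many transcripts were present and on how often each was bound, and these cannot be told apart here.

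The sequences around the binding positions are shown to compare what TTP met in each member. They are mRNA strands from GENCODE M21 transcripts on mm10, written 5′ to 3′, with AUUUA in capitals. The first line of Zfp36 and of Zfp36l2 below gives 30 nt of the 3′UTR with most AUUUA, and so does the line of Zfp36l1. In each member other windows of 30 nt held as many AUUUA, and the one nearest the stop codon is shown. The other lines give 29 nt centred on the nucleotide with most cDNAs over all lists in a cluster of sites, which is base 15 in each. In the Zfp36 3′UTR this nucleotide, number 652 after the stop codon, was tied with number 729, and the first of them is shown.
Zfp36 3′UTR, AUUUA-rich window, chr7:28376963-28376992, minus strand: ugggcccuuuAUUUAugacgacuuuAUUUA
Zfp36 3′UTR, nucleotide 652, chr7:28376892-28376920, minus strand: acuccguuuuucuuuuuguaauguuaaaa
Zfp36 CDS, site with most cDNAs, chr7:28377687-28377715, minus strand: acucucugggauccgauccugaugacuac
Zfp36l1 3′UTR, AUUUA-rich window, chr12:80108434-80108463, minus strand: aagcuuAUUUAacuuaucaaaacguAUUUA
Zfp36l2 3′UTR, AUUUA-rich window, chr17:84184926-84184955, minus strand: cucaauaugaaaaacuAUUUAacuuAUUUA
Zfp36l2 3′UTR, cluster nearest the stop codon, chr17:84185552-84185580, minus strand: auuuuuauuauuauuauuauuguaaagau
Zfp36l2 3′UTR, most distal cluster, chr17:84184801-84184829, minus strand: uauaauugccauuauuaaucggcaaaaug
Each AUUUA-rich window held 2 pentamers. Summed over all lists, the window of Zfp36 held 21 cDNAs, that of Zfp36l2 held 34 and that of Zfp36l1 held 0. Since tied windows were not summed, the values of Zfp36 and Zfp36l2 do not rank these members. The Zfp36 3′UTR site shown lay in a run of U without AUUUA, and the cluster of Zfp36l2 nearest the stop codon lay on repeats of auu, also without AUUUA.

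A or U made up 56.3% of the 3′UTR of Zfp36, 60.2% of that of Zfp36l1 and 59.9% of that of Zfp36l2. The share over 3′UTRs in general was not computed. Zfp36 (ENSMUSG00000044786.6, chromosome 7, 28376784 to 28380253) has a 3′UTR of 774 nt with 3 AUUUA. Zfp36l1 (ENSMUSG00000021127.7, chromosome 12, 80107754 to 80113013) has 1835 nt with 9 AUUUA. Zfp36l2 (ENSMUSG00000045817.8, chromosome 17, 84183931 to 84187947) has 1822 nt with 5 AUUUA. Each of these 3′UTRs holds 3 copies of UAUUUAU and 1 copy of the nonamer UUAUUUAUU, both of which contain AUUUA, counted on the mRNA strand. Of 21028 annotated 3′UTRs, 65.2% hold AUUUA, 27.6% hold UAUUUAU and 7.66% hold UUAUUUAUU.

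The 3′UTR of Zfp36 was bound by both proteins at 1 h of LPS. Without LPS, it held 4 cDNAs at 3 sites in the GFP-TTP list and 0 in the GFP-TTP-AA list. At 1 h, it held 21 cDNAs at 20 sites in the GFP-TTP list and 131 cDNAs at 76 sites in the GFP-TTP-AA list. At 4 h, both lists held 0. The count of the 1 h GFP-TTP-AA list was thus the highest of the 6. Its exact Poisson interval of 110 to 155 cDNAs did not overlap that of the 1 h GFP-TTP list (13.0 to 32.1). These counts are not scaled to list size: the 1 h lists of GFP-TTP-AA and GFP-TTP held 93510 and 9558 3′UTR cDNAs. At the share of the 1 h GFP-TTP list, the 1 h GFP-TTP-AA list would hold 205 Zfp36 cDNAs.

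**Figure D1:**
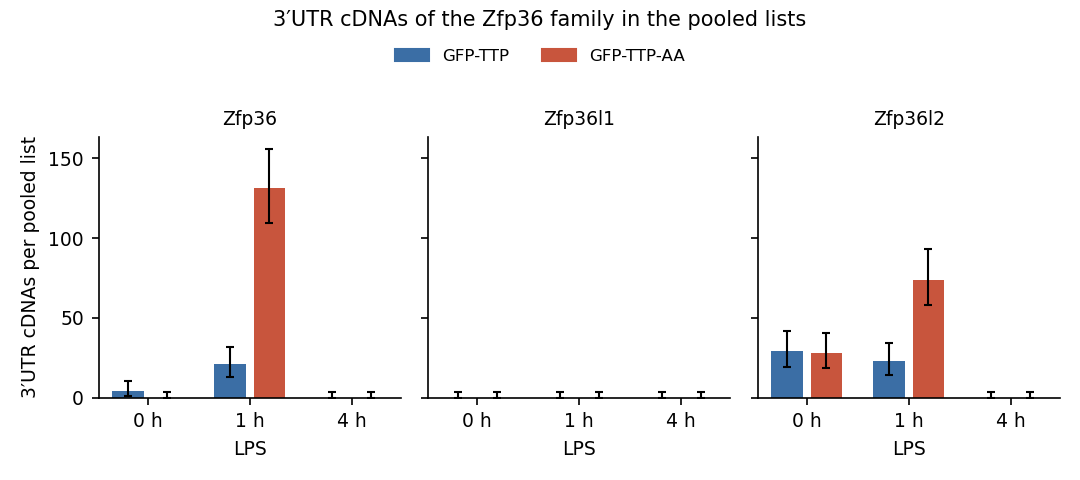
3′UTR cDNAs (y axis, number per pooled list) of Zfp36, Zfp36l1 and Zfp36l2 at 0 h, 1 h and 4 h of LPS, for GFP-TTP (blue) and GFP-TTP-AA (red); bars are the counts of the 6 lists and error bars exact Poisson 95% intervals. Zfp36 peaks at 131 cDNAs in GFP-TTP-AA at 1 h, Zfp36l2 has 23 to 74 cDNAs at 0 h and 1 h, and Zfp36l1 stays at 0. Counts are not scaled to the size of the lists.

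Within the 3′UTR of Zfp36, all sites in these lists lay in the distal part. The 83 sites lay between nucleotides 545 and 739 after the stop codon, a stretch of 195 nt or 25.2% of the 3′UTR that contains all 3 AUUUA and ends 35 nt before the annotated end. The polyadenylation signal AAUAAA follows at nucleotide 752. The first 544 nt of the 3′UTR held no site. In windows of 50 nt, the GFP-TTP-AA list at 1 h held 21 cDNAs from nucleotide 551 to 600, 49 from 601 to 650, 36 from 651 to 700 and 25 from 701 to 750. The GFP-TTP list held 6, 6, 2 and 5 cDNAs in the same windows and 2 cDNAs upstream of them, where GFP-TTP-AA had 0. The 4 cDNAs of GFP-TTP at 0 h lay at nucleotides 723 to 725, past the last AUUUA.

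Within the Zfp36 3′UTR, the sites with most cDNAs were not at AUUUA. In the GFP-TTP-AA list at 1 h, nucleotides 651, 652 and 729 held 7 cDNAs each, and none of them had AUUUA within 20 nt. Nucleotide 576, the first base of the first AUUUA, followed with 5 cDNAs, and nucleotides 615 and 616 at the last AUUUA held 4 each. The 3 AUUUA begin at nucleotides 576, 591 and 616. Within 20 nt of them, GFP-TTP-AA had 19, 30 and 36 cDNAs and GFP-TTP had 4, 2 and 0. These neighbourhoods overlap, so a cDNA can count for more than 1 AUUUA.

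Among the Zfp36 sites at 1 h, 44.7% of those of GFP-TTP-AA had AUUUA within 20 nt (34 of 76, Wilson interval 34.1% to 55.9%), against 20% of those of GFP-TTP (4 of 20, 8.07% to 41.6%). Over the 59246 and 6602 3′UTR sites of the same lists that fell within an exon of the transcript with the longest 3′UTR of their gene, the shares were 34.7% and 37.9%. The intervals of Zfp36 overlapped and each included the share over these sites. They treat neighbouring sites of 1 stretch as independent, and overlap of intervals is not a test. A difference between the proteins was not tested and, with 20 GFP-TTP sites, is not claimed. With AUUUA counted within 50 nt, the order turned, with 75% of the GFP-TTP sites and 64.5% of the GFP-TTP-AA sites. The crosslinked nucleotide was U at 51 of 76 GFP-TTP-AA sites (67.1%) and 10 of 20 GFP-TTP sites, beside 61.6% and 63.8% over the same 59246 and 6602 sites.

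Most GFP-TTP sites in Zfp36 lay close to a GFP-TTP-AA site. Of the 20 GFP-TTP sites at 1 h, 18 (90%, 69.9% to 97.2%) had a GFP-TTP-AA site within 15 nt, beside 76.6% of all GFP-TTP 3′UTR sites, and 14 lay at the same nucleotide. In the other direction, 45 of the 76 GFP-TTP-AA sites (59.2%, 48.0% to 69.6%) had a GFP-TTP site within 15 nt, beside 21.5% of all GFP-TTP-AA 3′UTR sites. The GFP-TTP-AA list is the larger of the lists, and the share of its sites found again depends on the depth of the GFP-TTP list. That share over all sites also covers genes without a GFP-TTP site: 4468 genes held 3′UTR cDNAs in the GFP-TTP-AA list, against 1295 in the GFP-TTP list. The 76 GFP-TTP-AA sites lay within 195 nt, so a high share within 15 nt was nearly given by their density. These shares therefore cannot show whether the proteins prefer the same positions.

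**Figure D2:**
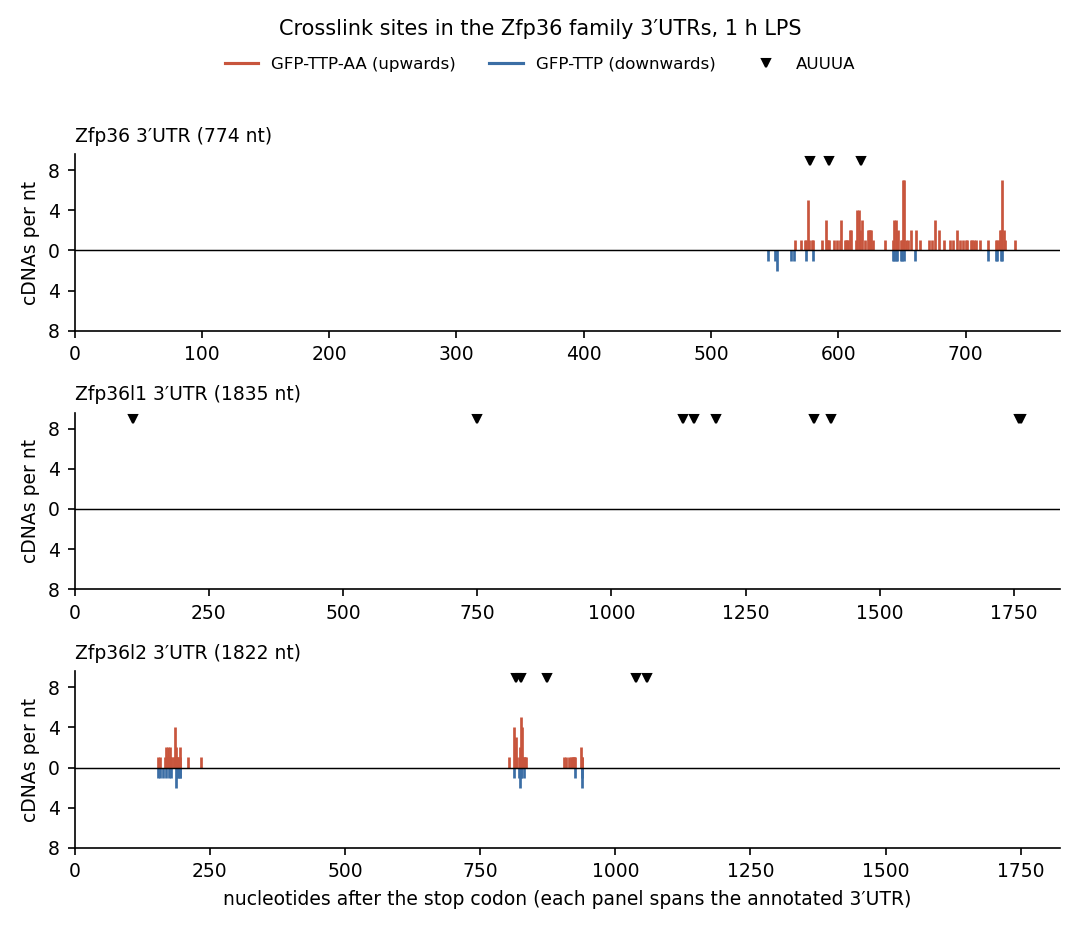
Crosslink sites along the 3′UTRs of Zfp36, Zfp36l1 and Zfp36l2 at 1 h of LPS; the x axis gives nucleotides after the stop codon, the y axis cDNAs per nucleotide for GFP-TTP-AA (red, upwards) and GFP-TTP (blue, downwards), and triangles mark AUUUA. Sites of Zfp36 lie between nucleotides 545 and 739, those of Zfp36l2 between 154 and 939, and Zfp36l1 has AUUUA but no site.

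The CDS of Zfp36 held 5 cDNAs in the GFP-TTP list at 0 h, 7 in the GFP-TTP list at 1 h and 31 in the GFP-TTP-AA list at 1 h. The other lists held 0. All CDS cDNAs of GFP-TTP lay at 1 nucleotide, position 28377701 or base 817 of the CDS, which is 143 nt before the end of the stop codon. The same nucleotide held 19 of the 31 cDNAs of GFP-TTP-AA at 1 h (61.3%), and the other 12 lay at 11 nucleotides with at most 2 cDNAs each. This nucleotide is a G without AUUUA within 20 nt. In the GFP-TTP-AA list at 1 h, 17 CDS nucleotides of 10 genes held at least 10 cDNAs, out of 2331 CDS sites. Neither the 5′UTR nor the intron of Zfp36 held a cDNA.

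Within Zfp36, the ratio of GFP-TTP-AA to GFP-TTP cDNAs at 1 h was compared between the 3′UTR and the CDS, since the introduced mRNA has the latter alone. The ratio in the 3′UTR was 1.41 times that in the CDS, with an exact interval of 0.463 to 3.83, so no difference was detectable. The direction rested on the single CDS nucleotide: with each site counted once the value was 0.319 (0.00706 to 2.41). Without that nucleotide, GFP-TTP had 0 CDS cDNAs and the comparison gave 0 (0 to 2.45).

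Zfp36l2 was bound in its 3′UTR with and without LPS. At 0 h, its 3′UTR held 29 cDNAs at 24 sites in the GFP-TTP list and 28 cDNAs at 18 sites in the GFP-TTP-AA list. At 1 h, it held 23 cDNAs at 20 sites and 74 cDNAs at 51 sites. The lists held 0 cDNAs in its 3′UTR at 4 h, and 0 in its CDS, 5′UTR and intron at any time. By number of 3′UTR cDNAs, Zfp36l2 ranked 14 of 738 genes for GFP-TTP and 16 of 894 for GFP-TTP-AA at 0 h. At 1 h it ranked 49 of 1295 and 189 of 4468, whereas Zfp36 ranked 53 and 81.

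The sites of Zfp36l2 formed 3 clusters, defined by gaps of more than 30 nt between neighbouring sites. The cluster nearest the stop codon spanned nucleotides 154 to 233 with 35 sites and no AUUUA. It held 22 cDNAs of GFP-TTP and 28 of GFP-TTP-AA at 0 h, and 12 and 33 at 1 h. After a gap of 570 nt, the second cluster spanned nucleotides 803 to 834 with 19 sites around 2 AUUUA. It held 6 and 0 cDNAs at 0 h, and 7 and 28 at 1 h. The most distal cluster, nucleotides 905 to 939 without AUUUA, held 1 and 0 cDNAs at 0 h, and 4 and 13 at 1 h. The last site lay 883 nt before the annotated end, so, unlike in Zfp36, the sites did not reach the distal end of the 3′UTR.

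In the GFP-TTP-AA lists, only the cluster near the stop codon had sites before LPS, and all 3 clusters had sites at 1 h. Of its Zfp36l2 cDNAs, 0 of 28 lay past the gap at 0 h (Wilson interval 0% to 12.1%), compared with 55.4% at 1 h (41 of 74, 44.1% to 66.2%). The share in the GFP-TTP lists was 24.1% at 0 h (7 of 29, 12.2% to 42.1%), compared with 47.8% at 1 h (11 of 23, 29.2% to 67.0%). The intervals of the 2 times did not overlap for GFP-TTP-AA and overlapped for GFP-TTP. At 1 h, the intervals of the proteins overlapped. The split at the gap was chosen after the positions were seen, so these values are a description without a test. The GFP-TTP-AA lists held 6008 3′UTR cDNAs at 0 h and 93510 at 1 h, and sites under the threshold are not listed. The 0 h and 1 h lists also differ in a mark on peak calling in their headers. Time, depth and peak calling thus cannot be told apart, and how often other 3′UTRs differ in this way was not computed.

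**Figure D3:**
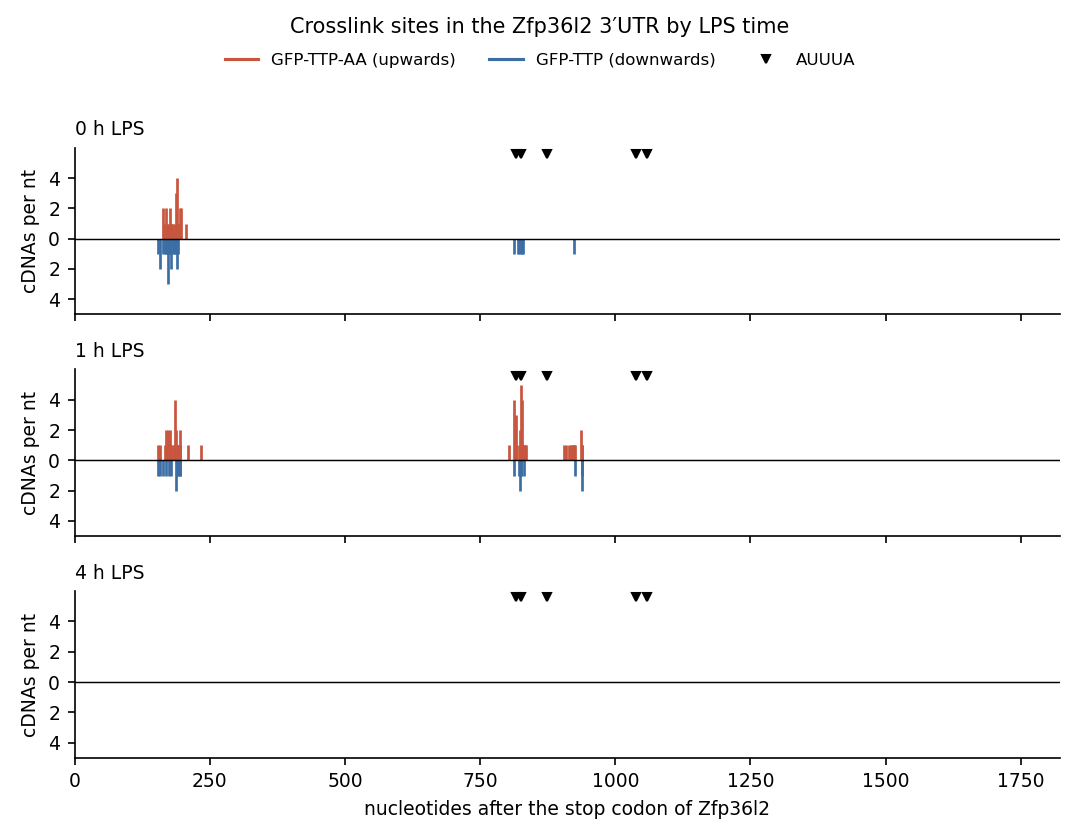
Crosslink sites along the Zfp36l2 3′UTR at 0 h, 1 h and 4 h of LPS; the x axis gives nucleotides after the stop codon, the y axis cDNAs per nucleotide for GFP-TTP-AA (red, upwards) and GFP-TTP (blue, downwards), and triangles mark AUUUA. From nucleotide 803 on, GFP-TTP-AA has 0 cDNAs at 0 h and 41 at 1 h, and both lists have 0 at 4 h. Counts are not scaled to the size of the lists.

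Only 2 of the 5 AUUUA in Zfp36l2 had cDNAs within 20 nt, those that begin at nucleotides 814 and 823, the second of which lies in the nonamer UUAUUUAUU. The AUUUA at nucleotides 871, 1036 and 1057 had 0 in every list. At 1 h, AUUUA lay within 20 nt of 30% of the GFP-TTP sites (6 of 20, 14.5% to 51.9%) and 27.5% of the GFP-TTP-AA sites (14 of 51, 17.1% to 40.9%), and the intervals overlapped. The crosslinked nucleotide was U at 16 of 20 GFP-TTP sites and 38 of 51 GFP-TTP-AA sites (74.5%). All 20 GFP-TTP sites had a GFP-TTP-AA site within 15 nt (83.9% to 100%), and 48 of 51 GFP-TTP-AA sites (94.1%, 84.1% to 98.0%) had a GFP-TTP site. The clusters are short and dense, so high shares within 15 nt were nearly given here too.

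Zfp36l1 held 0 sense cDNAs in every list and region, although its 9 AUUUA outnumber those of the other members, and at least 8 AUUUA are found in 10.5% of 3′UTRs. On the same strand, 37 sites lay within 100 kb of the gene, all of them outside it and more than 20 kb away. Within 20 kb, a single position was listed, 80113225 on the plus strand outside the gene, with 2 cDNAs of GFP-TTP-AA at 0 h and 2 at 4 h. Whether Zfp36l1 mRNA was present cannot be read from the lists and was not examined here. The study also sequenced total RNA of such cells after short LPS stimulation, but those data were not used. No more can be said here than that the lists as used name no site in Zfp36l1.

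The 3′UTR cDNAs of each member at 1 h of LPS were set against those of all other genes, to see whether a member gained more or less than 3′UTRs in general in the mutant. In the GFP-TTP-AA list, 3′UTR cDNAs were 9.78 times those in the GFP-TTP list. Zfp36 rose less, with a ratio of 6.24 (3.92 to 10.4), and Zfp36l2 less again, with a ratio of 3.22 (1.99 to 5.38). Zfp36 made up 0.220% of the GFP-TTP and 0.140% of the GFP-TTP-AA 3′UTR cDNAs, an odds ratio of 0.637 (0.400 to 1.06) that did not pass the two-sided Fisher exact test (adjusted p 0.318). Zfp36l2 made up 0.241% and 0.0791%, an odds ratio of 0.328 (0.203 to 0.550, Fisher exact test, adjusted p 0.00104). Thus 1 of the 2 members with enough cDNAs passed, in a comparison in which 6.39% of 2065 genes passed, 4.41% with a lower share and 1.99% with a higher share in GFP-TTP-AA. With each site counted once, Zfp36 also passed with a lower share (odds ratio 0.420, Fisher exact test, adjusted p 0.0330).

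The direction of this difference depends on the total that a member is set against. In 3′UTRs lay 9.63% of the GFP-TTP cDNAs and 53.6% of the GFP-TTP-AA cDNAs. Against all cDNAs of a list, Zfp36 was higher in GFP-TTP-AA (0.0751% against 0.0212%, odds ratio 3.55, Fisher exact test, adjusted p 8.53e-09), as were 84.9% of the 2065 genes by that total. Zfp36l2 was also higher by that total (0.0424% against 0.0232%, odds ratio 1.83, Fisher exact test, adjusted p 0.0145), but did not pass against the cDNAs outside the ribosomal RNA locus (odds ratio 1.46, adjusted p 0.147) or over gene bodies (odds ratio 1.42, adjusted p 0.205). Both members thus had more cDNAs in the mutant list, whereas Zfp36l2 had a smaller share of the 3′UTR cDNAs in it. On the log2 scale with a pseudocount of 0.5, the ratio of GFP-TTP-AA to GFP-TTP cDNAs was 2.61 for Zfp36 and 1.66 for Zfp36l2, beside a median of 4.52 over the tested genes. Of these genes, 1530 had 3 or fewer GFP-TTP cDNAs, which raises that median. The ratio of Zfp36 was 1.93 times that of Zfp36l2, with an exact interval of 0.952 to 3.95 that included 1.

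**Figure D4:**
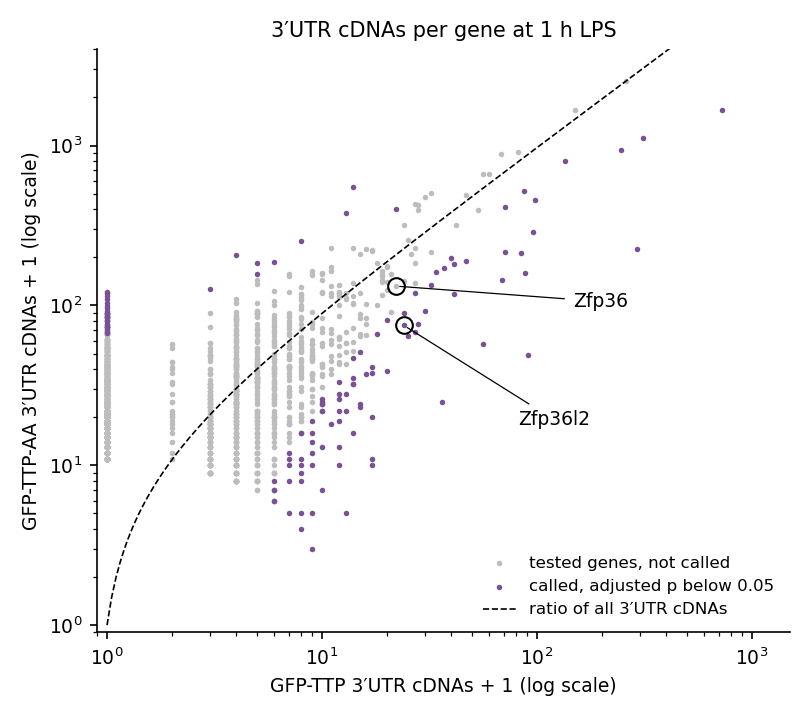
3′UTR cDNAs of the 2065 tested genes at 1 h of LPS, with GFP-TTP on the x axis and GFP-TTP-AA on the y axis (both as cDNAs plus 1 on log scales); purple points passed the Fisher exact test at an adjusted p below 0.05, grey points did not, and the dashed line marks the ratio of all 3′UTR cDNAs, 9.78. Zfp36 lies below the line among the grey points and Zfp36l2 lies further below it among the purple points.

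Per length of 3′UTR, Zfp36 was the more densely bound member at 1 h. It had 27.1 cDNAs per kb in the GFP-TTP list and 169 in the GFP-TTP-AA list, against 12.6 and 40.6 for Zfp36l2. The median over genes with a 3′UTR site was 2.22 and 6.09 cDNAs per kb. At 0 h the order was the other way round, with 5.17 and 0 cDNAs per kb for Zfp36 and 15.9 and 15.4 for Zfp36l2.

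Between 0 h and 1 h of LPS, the share of Zfp36 rose for GFP-TTP-AA and that of Zfp36l2 fell for both proteins. For GFP-TTP-AA, Zfp36 went from 0 of 6008 to 131 of 93510 3′UTR cDNAs. With the 0 of the pooled list set to 3 cDNAs, an arbitrary value, the share of the listed cDNAs was 2.81-fold higher. The exact interval of the odds ratio began at 2.25 and had no upper limit (Fisher exact test, adjusted p 0.00903). In that comparison 2.73% of 2052 genes passed with a higher share at 1 h. With each site counted once, the adjusted p of this exact test was 0.0831, so the call depended on sites with several cDNAs. For GFP-TTP, Zfp36 went from 0.0916% to 0.220%, an odds ratio of 2.40 (0.810 to 9.63) that did not pass (Fisher exact test, adjusted p 0.200), where 23.9% of 276 genes passed with a higher share.

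Zfp36l2 had a lower share at 1 h for both proteins. It fell from 0.664% to 0.241% of the GFP-TTP 3′UTR cDNAs (odds ratio 0.361, 0.199 to 0.647, Fisher exact test, adjusted p 0.00141), in a comparison in which 23.6% of 276 genes passed with a lower share. For GFP-TTP-AA, it fell from 0.466% to 0.0791% (odds ratio 0.169, 0.108 to 0.272, Fisher exact test, adjusted p 5.63e-10), where 9.70% of 2052 genes passed with a lower share. The number of GFP-TTP-AA cDNAs on Zfp36l2 still went from 28 to 74, as the list grew. Against all cDNAs the fall for GFP-TTP-AA was smaller, with an odds ratio of 0.494 (Fisher exact test, adjusted p 0.0159), and outside the ribosomal RNA locus it was 0.490 (adjusted p 0.0153). The 0 h and 1 h lists also differ in a mark on peak calling in their headers, so time and peak calling cannot be told apart.

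Before LPS, the share of Zfp36l2 did not pass the test between the proteins, with an odds ratio of 0.701 (0.401 to 1.22, Fisher exact test, adjusted p 0.334), in a comparison in which 30.7% of 241 genes passed. Zfp36, with 4 and 0 cDNAs, was under the minimum of 10 and was not tested. Whether the odds ratio between the proteins changed from 0 h to 1 h was tested with Zelen's exact test of equal odds ratios, in which 7.48% of 989 genes passed. It did not pass for Zfp36l2 (exact p 0.0373, adjusted p 0.189) or for Zfp36 (exact p 0.127, adjusted p 0.382).

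All 3 members had 0 cDNAs in both lists at 4 h. With 906 and 1000 3′UTR cDNAs at 4 h, the 1 h shares would give 1.99 cDNAs of Zfp36 for GFP-TTP and 1.40 for GFP-TTP-AA, and 2.18 and 0.791 of Zfp36l2. The Fisher exact test between 1 h and 4 h passed for neither member, with adjusted p of 0.546 for GFP-TTP and 1 for GFP-TTP-AA, in comparisons in which 5.88% of 170 genes and 0.101% of 1980 genes passed with a lower share. A lower share of 3′UTR cDNAs at 4 h was thus not detectable at this depth. As shares of all cDNAs of a list, both members passed as lower at 4 h for both proteins (Fisher exact test, adjusted p between 6.11e-05 and 0.0292), where 27.6% of 170 genes for GFP-TTP and 13.7% of 1980 genes for GFP-TTP-AA passed as lower. Zfp36 in GFP-TTP did not pass outside the ribosomal RNA locus (adjusted p 0.0508). The part of a list that lay in 3′UTRs also fell from 1 h to 4 h, from 9.63% to 3.12% for GFP-TTP and from 53.6% to 5.22% for GFP-TTP-AA. The 1 h and 4 h lists also differ in the mark on peak calling in their headers, so time and peak calling cannot be told apart. The tests took the 0 at 4 h as a count, although sites under the threshold of the authors are not listed.

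The genes with the most similar 3′UTR counts over the 6 lists were found by the Euclidean distance of square roots of the counts, among 2064 genes. The counts were not scaled to list size, so lists with more cDNAs could weigh more. Whether near genes share regulation was not tested. Nearest to Zfp36 was Zc3h12c, which encodes another CCCH zinc finger protein, of the Regnase family of RNases, at a distance of 1.05. It had 3 and 0 cDNAs at 0 h, 13 and 137 at 1 h and 0 at 4 h for GFP-TTP and GFP-TTP-AA. Csf1, the gene of macrophage colony-stimulating factor, followed at 1.69, and Hspa5, the endoplasmic reticulum chaperone BiP, at 2.06. Nearest to Zfp36l2 was Dgkd, a diacylglycerol kinase, at 2.46, with 19 and 19 cDNAs at 0 h and 11 and 100 at 1 h. Hsp90ab1, a cytosolic chaperone, followed at 3.02 and Txnrd1, a thioredoxin reductase, at 3.40.

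Genes that act with TTP were examined as a list of 31, which comprised the p38 and MK2 kinases, the phosphatases that act on them and on TTP, 14-3-3 proteins, deadenylation and decapping factors, translational repressors and the competing AU-rich element binder Elavl1. At 1 h, 12 had 3′UTR cDNAs in the GFP-TTP list and 23 in the GFP-TTP-AA list, and 16 were tested. The share of 3′UTR cDNAs passed as higher in GFP-TTP-AA for 1 of these and as lower for 4, beside 1.99% and 4.41% of all tested genes. Of these 4, 3 were higher in GFP-TTP-AA against all cDNAs of a list, as were 84.9% of all tested genes. The median log2 ratio of the 16 was 2.53, beside 4.52 over all tested genes. The latter is raised by 1530 genes with 3 or fewer GFP-TTP cDNAs. The medians were not matched for count, so they do not set the partners apart from other genes.

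Ywhaz, which encodes a 14-3-3 protein, was the gene with a higher share in GFP-TTP-AA, with 2 GFP-TTP and 126 GFP-TTP-AA cDNAs (odds ratio 6.45, Fisher exact test, adjusted p 0.0150). Dusp1, the phosphatase that inactivates p38, had 70 and 214 cDNAs and a lower share of the 3′UTR cDNAs (odds ratio 0.311), but a higher share of all cDNAs (odds ratio 1.74). The 14-3-3 genes Ywhag, with 40 and 181 cDNAs, and Ywhae, with 17 and 65, also had lower shares of the 3′UTR cDNAs in GFP-TTP-AA (odds ratios 0.461 and 0.390) and higher shares of all cDNAs (2.58 and 2.18). Gigyf1, part of a translational repressor complex that binds TTP, had 7 and 3 cDNAs (odds ratio 0.0438), and was also lower against all cDNAs without passing (odds ratio 0.244, Fisher exact test, adjusted p 0.0502).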

How the data were processed

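The 15 samples fall into 6 groups, each with 1 deposited list of crosslink sites. The value of a site is a score made by the authors: the number of unique cDNAs, with a sign for the strand. According to the study's methods, the authors removed PCR duplicates by random barcode bases, mapped unique reads to mm10 with Bowtie (version not given in the sources used here), defined the base preceding a read as the site, pooled the libraries per group and retained sites at a false-discovery rate of 0.05 (100 permutations, 15 nt). The headers of the 1 h lists alone carry a mark for regions treated as a unit. No further normalisation was applied.

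With Python 3.11.15, numpy 2.4.6 and scipy 1.17.1, each site was given a GENCODE M21 region in the order 3′UTR, CDS, 5′UTR, non-coding exon and intron. Positions are 1-based. A gene with at least 10 3′UTR cDNAs over 2 lists was tested against all other 3′UTR cDNAs (two-sided Fisher exact test, Benjamini-Hochberg over all genes, threshold 0.05). Exact conditional, Wilson and Poisson intervals are at 95% and cover counting error only. Zelen's exact test compared odds ratios between times for genes with at least 10 cDNAs over 4 lists and some at both times, and the tests were checked on simulated data. Alternative settings changed the denominator, the unit counted, the region, the minimum count and the motif distance; the lists allowed no analysis of single libraries. The members and gene lists were chosen with earlier results of these data known. The text names the members, the 3 nearest genes of each bound member and the listed partners that passed the threshold.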

Additional observations from a re-analysis of the deposited data

How the results depend on the processing

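No paired analysis was possible because the lists pool the libraries of a group, and for the same reason no library could be left out. Of 96 alternatives, 63 kept the direction and the side of the threshold, or stayed within the interval of the main value. The denominator had the widest effect. Against all cDNAs of the list at 1 h, the odds ratio of GFP-TTP-AA to GFP-TTP was 3.55 for Zfp36 and 1.83 for Zfp36l2, and 1763 genes passed the threshold in place of 132. Outside the ribosomal RNA locus the values were 2.84, 1.46 and 1644 genes, and Zfp36l2 did not pass (adjusted p 0.147). With all sense sites of gene bodies, the odds ratios were 2.55 and 1.42, and Zfp36l2 did not pass (adjusted p 0.205). These totals include cDNAs outside 3′UTRs, which were a larger part of the GFP-TTP list. With each site counted once, the odds ratio of Zfp36 at 1 h was 0.420 and passed the Fisher exact test (adjusted p 0.0330). The 3′UTR against CDS comparison of Zfp36 was 0.319 with sites counted once. AUUUA lay within 50 nt of 75% of the GFP-TTP and 64.5% of the GFP-TTP-AA sites of Zfp36. At the same nucleotide, 75% of the GFP-TTP sites of Zfp36l2 were shared. The remaining alternatives were chosen after the data were seen. The 3′UTR against CDS comparison was 0 without the CDS nucleotide with most cDNAs. From 0 h to 1 h in GFP-TTP-AA, the adjusted p of Zfp36 was 0.0831 with sites counted once. From 1 h to 4 h against all cDNAs, the adjusted p of the Fisher exact test was 0.0292 for Zfp36 and 0.0192 for Zfp36l2 in GFP-TTP, and 6.11e-05 and 0.00848 in GFP-TTP-AA. Outside the ribosomal RNA locus it was 0.0508 for Zfp36, which did not pass, and 0.0203 for Zfp36l2 in GFP-TTP, and 9.69e-05 for Zfp36 and 0.0126 for Zfp36l2 in GFP-TTP-AA. The change of the ratio of Zfp36 from 0 h to 1 h had an adjusted p of 0.0157 in Zelen's exact test against all cDNAs. Of the partners at 1 h, Dusp1, Ywhag and Ywhae had odds ratios of 1.74, 2.58 and 2.18 against all cDNAs, and Gigyf1 did not pass (0.244). The cause of these changes was not tested. Depth limits the 4 h lists most, with 906 and 1000 3′UTR cDNAs.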
